A study of Mus musculus with 2 samples.

Results

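The immunity-related GTPases (IRG proteins) are a family of interferon-inducible GTPases. The genes described were taken by symbol, namely the regulatory members Irgm1, Irgm2 and Igtp and the effector members Iigp1, Tgtp1, Tgtp2 and Ifi47. They are 7 of the 26082 genes listed for both libraries. The members were selected on the measured values described here, because their FPKM was higher in one library than in the other, so the values are a description of these libraries and no test was made of them. The choice was by name and had no threshold.

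The RNA came from fibro-adipogenic progenitors (FAPs), mesenchymal cells that lie between muscle fibers and can become adipocytes. They were primary cells of wild-type mice, sorted by flow cytometry from hind-limb muscle. The mice described for this work were young adults of the strain C57BL/6, and the labels of the libraries give no age. In one group the cells received plasmids for overexpressing TGFBR3, a co-receptor for ligands of the TGF-β family, and in the other the vector. The labels call them TGFBR3 OE and control. Both groups were cultured for adipogenic differentiation in DMEM that held insulin (10 μg/ml), dexamethasone (0.25 μM), IBMX (0.5 mM) and serum (FBS, 20%). How long the cells had been in this medium is not given by the labels.

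Each group is 1 library, with nothing to show how much 2 cultures of one group differ. The 95% intervals below are exact Clopper-Pearson intervals on counts, or Poisson intervals for a single level, and they cover counting error only. They compare the libraries and not the conditions. The total count was 62321027 in the library labelled TGFBR3 OE and 83779203 in the library labelled control. Tgfbr3 itself had an FPKM of 36.87 and 35.13 (16372 and 21245 counts), a log2 ratio of 0.07 (95% interval 0.04 to 0.10). The overexpressed gene was therefore not raised beyond the shift of the median gene given below, and every direction here follows the labels. The FAP marker Pdgfra was read at 30.48 and 32.6 FPKM, and Ly6a, which encodes Sca-1, at 1012.73 and 706.37, while Lum, another marker of these cells, had 45 and 8 counts.

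As background, IRG proteins belong to the defenses that an infected cell mounts within itself, and interferon-γ is their best known inducer. The effector members gather on the vacuole in which a parasite such as Toxoplasma gondii lives, bind GTP there and break the vacuole's membrane. The regulatory members sit on the cell's own membranes and hold the effectors in their inactive, GDP-bound form, so that these organelles are spared. Fibroblasts and other non-immune cells of the mouse use this system too.

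The difference between the 2 classes is written in the first nucleotide-binding motif of the GTPase domain, where the regulatory members carry methionine in place of the lysine of other GTPases. The coding bases of this motif are shown because the class of each member is used throughout, with that codon in capitals. They were read 5′ to 3′ from the GENCODE transcripts on GRCm38 (mm10).
Irgm1: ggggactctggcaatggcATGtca
Irgm2: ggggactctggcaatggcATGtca
Igtp: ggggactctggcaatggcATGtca
Tgtp1: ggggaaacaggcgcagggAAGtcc
Tgtp2: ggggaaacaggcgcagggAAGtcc
Ifi47: gggcagtctgggactggcAAGtcc
All 3 regulatory members had the same 24 bases, at chr11:48866761-48866784 on the minus strand for Irgm1 and on the plus strand at chr11:58219695-58219718 for Irgm2 and chr11:58206275-58206298 for Igtp. Tgtp1 and Tgtp2 also shared their bases, at chr11:48987667-48987690 and chr11:49059534-49059557, both on the minus strand, and Ifi47 had its own at chr11:49095648-49095671 on the plus strand. The codon in capitals is codon 89 of Irgm1, 77 of Irgm2, 97 of Igtp, 69 of Tgtp1 and Tgtp2 and 87 of Ifi47. Iigp1 has lysine at this position as well, at codon 82. The coding sequences were alike in length, from 395 codons in Irgm2 to 423 in Igtp. Outside the motif they differed, with 72.3% of aligned coding bases identical between Igtp and Irgm2, 67.9% between Igtp and Irgm1 and 65.8% between Irgm1 and Irgm2. Tgtp1 and Tgtp2 stood apart with 99.7% identity, a difference at 4 of 1245 bases.

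Promoters were searched on both strands for 2 short motifs of interferon signaling. The first was GAAANNGAAA, the core of the interferon-stimulated response element (ISRE), to which interferon regulatory factors bind. The second was TTCNNNGAA, the gamma-activated site (GAS), a motif of genes that respond to interferon-γ. Windows ran from 250 bases before to 50 after the start in RefSeq (GRCm38.p6), which held a promoter for 6 of the 7 members, all but Iigp1. An ISRE match was present in 5 of these 6 and a GAS match in 4, against 3.99% and 9.55% of all 27025 genes with a promoter. Over all 32851 promoters the shares were 3.44% and 8.30%. The windows of 30 bases that hold them are printed on the strand of the gene, 5′ to 3′, with the matched bases in capitals.
Irgm1: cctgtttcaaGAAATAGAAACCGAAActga
Irgm2: gccatTTCCAGGAActGAAACTGAAAgctg
Igtp: gccatTTCTAGGAActGAAACTGAAAgctg
Tgtp1: gccatTTCCAGGAAtcGAAACTGAAAccta
Tgtp2: gccatTTCCAGGAAtcGAAACCGAAAccta
They lie at chr11:48871431-48871460 (Irgm1, minus strand), chr11:58214897-58214926 (Irgm2, plus strand), chr11:58199506-58199535 (Igtp, plus strand), chr11:48992310-48992339 (Tgtp1, minus strand) and chr11:49064269-49064298 (Tgtp2, minus strand). Irgm1 held 2 overlapping ISRE matches, which started 30 and 24 bases before its start site, and no GAS match. In Irgm2, Igtp, Tgtp1 and Tgtp2, the GAS match was followed by 2 bases and then by the ISRE match, without overlap. This order was looked for after the sequences had been seen, as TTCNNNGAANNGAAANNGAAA, and 5 of the 32851 promoters held it, which is 0.0152%. They belong to these 4 members and to Gm12185, another gene of the family. Gm12185 overlaps Tgtp1 on the same strand, over 6.96% of the exon bases of Tgtp1 and 3.99% of its own. Their GAS matches lie 86 bases (Gm12185) and 88 bases (Tgtp1) before the start. Whether the promoters of Gm12185 and Tgtp1 are the same stretch of DNA was not examined, so the 5 promoters may not be 5 separate sites. The printed windows of Irgm2 and Igtp are nearly alike, as are those of Tgtp1 and Tgtp2, so their matches need not be separate occurrences. The window of Ifi47 held neither motif. Of 12 other genes of the family, listed below, 6 had a promoter in RefSeq. An ISRE match was found in 3 of these and a GAS match in 2. A match is a string of letters and was not tested for binding in these cells.

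All 7 members were read in both libraries, and each had a higher FPKM in the library labelled TGFBR3 OE. FPKM is the fragment count of a gene scaled to the length of its exons and to the library total, so that levels of different genes can be set side by side. In that library Igtp had the highest level of any single gene of the family, 141.1 FPKM, followed by Irgm1 with 118.13 and Irgm2 with 105.57. Taken gene by gene, the 3 regulatory members thus stood above all effectors. The split of reads between Tgtp1 and Tgtp2 is uncertain, however, and their summed level was 144.14 FPKM, close to that of Igtp. This sum shifts with the split, so its order with Igtp is not settled. Tgtp1 followed with 79.21 FPKM, Tgtp2 with 64.93, Iigp1 with 46.3 and Ifi47 with 39.74. Neighbors in this order did not have overlapping Poisson intervals, which ran from 117 to 119 FPKM for Irgm1 and from 104 to 107 for Irgm2, the pair with the smallest relative gap.

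In the library labelled control the order was another one. Irgm2 was highest with 20.71 FPKM, before Irgm1 with 16.12, Igtp with 11.66, Ifi47 with 6.88 and Iigp1 with 4.38. Tgtp2 and Tgtp1 were last, with 1.06 and 0.82 FPKM. The intervals of this last pair came close without overlapping, 0.941 to 1.19 for Tgtp2 and 0.720 to 0.930 for Tgtp1, although the split of reads between them is uncertain, as described below. Regulatory members were the top 3 here too. Tgtp1 was thus lowest of the family in the library labelled control and highest of the effectors in the other, whereas Ifi47 was the highest effector in the former and the lowest in the latter. Among all 26082 genes Tgtp1 ranked 11324 by level in the library labelled control and 606 in the other one, and Irgm1 ranked 2801 and 389.

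**Figure D1:**
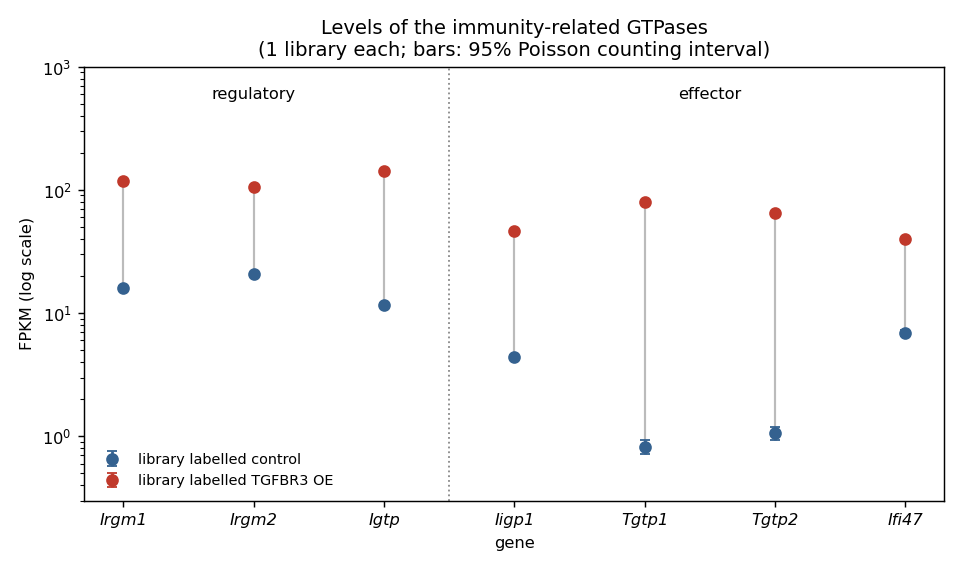
FPKM of the 7 members on a log axis, in the library labelled control (blue) and the library labelled TGFBR3 OE (red), with 95% Poisson counting intervals and 1 library each. The red points span 39.74 to 141.1 FPKM and the blue ones 0.82 to 20.71, and the grey line that joins a gene's points is longest for Tgtp1.

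The comparison of the libraries was made as the log2 ratio of (FPKM + 1), the library labelled TGFBR3 OE over the library labelled control, which understates the ratio of genes with low values. Over the 11213 genes whose mean FPKM was 1 or more, the median ratio was 0.14 and the 5th and 95th percentiles were −0.58 and 0.83. Of these genes, 352 had a ratio of 1 or more, which is 2-fold, or 3.14%, and 116 had a ratio of −1 or less, or 1.03%. A ratio of 2 or more, which is 4-fold, was found for 77 genes, or 0.687%. All 7 members had ratios of 2 or more, with the whole counting interval above 2, and since the members were chosen on this contrast nothing is read from that count. The median gene, taken over genes that reached 1 FPKM in both, had a ratio of 0.13, and relative to it the 7 members still had ratios of 2 or more. With the ratios centred on that gene, the split between higher and lower genes was 268 to 183, with TMM factors on the counts 283 to 302, and with median-of-ratios size factors 268 to 335.

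The regulatory members had a median log2 ratio of 2.80. Igtp, also called Irgm3, which resides at the endoplasmic reticulum and lipid droplets, had the largest ratio of the class. Its counts were 19356 and 2180, and its log2 ratio was 3.49 (95% interval 3.43 to 3.55), with a plain FPKM ratio of 12.1. Irgm1, found at the Golgi apparatus and lysosomes and studied in mice for its part in resistance to mycobacteria, had 46563 and 8654 counts and a log2 ratio of 2.80 (2.77 to 2.83). Irgm2, a Golgi protein, had 26428 and 7063 counts and a log2 ratio of 2.30 (2.26 to 2.33), the smallest of the family. The plain FPKM ratios of Irgm1 and Irgm2 were 7.33 and 5.10. The intervals of the 3 regulatory members did not overlap, so their ratios differed by more than counting error between these libraries.

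The effector members had a median log2 ratio of 4.07 and were spread more widely than the regulatory ones. That median counts Tgtp1 and Tgtp2 as separate genes, although the split of their reads is uncertain. Without this pair the effector sum had a log2 ratio of 2.83, beside 2.89 for the regulatory sum. Tgtp1 and Tgtp2 encode Irgb6, an effector that is among the first to reach the Toxoplasma vacuole. Tgtp1 had 17223 counts in the library labelled TGFBR3 OE and 244 in the other, and its log2 ratio of 5.46 (95% interval 5.38 to 5.54) ranked 3 among all 11213 genes. Tgtp2 had 12941 and 287 counts, and its log2 ratio of 5.00 (4.91 to 5.09) ranked 5. Iigp1, or Irga6, the effector whose structure and GTP-driven assembly are best known, had 18290 and 2361 counts and a log2 ratio of 3.14 (3.08 to 3.19). Ifi47, or Irgd, had 6669 and 1573 counts and a log2 ratio of 2.37 (2.30 to 2.44), whose interval overlapped that of Irgm2. The ratio of Ifi47 was thus below those of 2 regulatory members, and the classes overlapped.

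Reads of Tgtp1 and Tgtp2 cannot be assigned with certainty to either gene. Of the 31-base words in the transcripts of Tgtp1, 83.2% also occur in Tgtp2, and of those of Tgtp2, 89.2% occur in Tgtp1. How the authors' counting treated reads that map to both genes is not given in the sources used here. Tgtp1 held 57.1% of the pair's counts (95% interval 56.5% to 57.7%) in the library labelled TGFBR3 OE and 46.0% (41.7% to 50.3%) in the library labelled control. The summed count of the pair does not depend on how its reads are divided between the genes. It would change if shared reads were left out or counted for both. The summed FPKM also shifts with the split, because the exons span 3205 bases in Tgtp1 and 2938 in Tgtp2. The pair had 30164 counts and 144.14 FPKM in the library labelled TGFBR3 OE, and 531 counts and 1.88 FPKM in the library labelled control. The log2 ratio of the summed FPKM was 5.66 (95% interval 5.57 to 5.74), and its plain ratio was 76.7. That interval does not cover the split. The pair's share of all counts differed 76.4-fold. Of the other members, Igtp shared the most words with other genes, 15.9%. Irgm2 and Igtp overlap in one exon on the same strand, over 4.39% of the exon bases of Irgm2 and 8.01% of those of Igtp.

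Summed over the family, the FPKM was 594.98 in the library labelled TGFBR3 OE and 61.63 in the library labelled control. The 7 genes took 0.237% of all counts (95% interval 0.235% to 0.238%) in the former and 0.0267% (0.0263% to 0.0270%) in the latter, an 8.87-fold difference (8.74 to 8.99). The regulatory sum was 364.8 and 48.49 FPKM, a log2 ratio of 2.89. The effector sum was 230.18 and 13.14 FPKM, a log2 ratio of 4.03. In bulk RNA, more cells with these transcripts and more transcripts per cell cannot be told apart.

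The make-up of the family's transcripts differed as well. Effectors held 38.7% of the summed FPKM in the library labelled TGFBR3 OE and 21.3% in the other, and the effector sum over the regulatory sum was 0.631 and 0.271. Tgtp1 and Tgtp2 together held 24.2% of the family in the former library and 3.05% in the latter. Without this pair, the effector sum over the regulatory sum was 0.236 and 0.232, nearly the same in both libraries. Igtp went from 18.9% of the family to 23.7%, Irgm2 from 33.6% to 17.7%, and Iigp1 had similar shares of 7.11% and 7.78%, in the order of control and OE label.

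**Figure D2:**
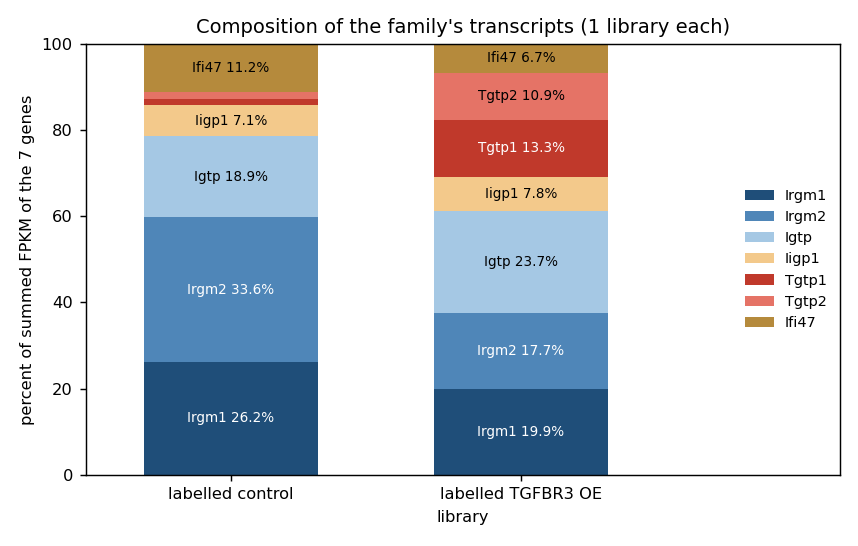
Share of each member in the summed FPKM of the 7 genes, in percent, for the library labelled control (left) and the library labelled TGFBR3 OE (right), with regulatory members in blue at the bottom of each bar. Tgtp1 and Tgtp2 (red) fill 3.05% of the left bar and 24.2% of the right bar.

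A further 12 genes of the family were listed apart from the members, and 11 of them were in the files (Irgc was not analysed here). Of the 7 that averaged 1 FPKM or more, 6 had log2 ratios of 1 or more, against 3.14% of all genes. Gm12250, Gm4841 and F830016B08Rik were under 1 FPKM in the library labelled control and passed this filter only through the other library. Entry of that kind favors high ratios, so the count of 6 is a description only. Their median ratio was 1.87, beside 0.14 over all genes. Gm12250, which RefSeq also names Irgb10, an effector that acts on bacterial membranes, had 13.42 and 0.78 FPKM and a log2 ratio of 3.02 (95% interval 2.86 to 3.16). GENCODE classes Gm12250 as a processed pseudogene.

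Gm4841, with 7.15 and 0.14 FPKM, had a log2 ratio of 2.84, Gm4951, with 15.21 and 1.53 FPKM, one of 2.68, and F830016B08Rik, with 3.34 and 0.19 FPKM, one of 1.87. These 3 genes are neighbors of Iigp1. The genes 9930111J21Rik2 and 9930111J21Rik1 encode long proteins of 844 codons and had log2 ratios of 1.54 and 1.51, with 69.5% and 88.3% of their words shared with other genes. Gm5431 (195 and 27 counts) and Gm12185 (98 and 15 counts) were under the minimum level, with log2 ratios of 0.69 and 0.29. Gm12185, the gene outside the 7 members whose promoter held the joint order, was thus under 1 FPKM in both libraries. It overlaps exons of Tgtp1 on the same strand, and reads in the shared bases cannot be assigned to Gm12185 or Tgtp1. Irgq, which is not known as an interferon-inducible gene, had 9.90 and 9.84 FPKM and a log2 ratio of 0.01 (−0.04 to 0.06). Irgc1 had 0 and 5 counts and Gm12187 had 3 and 0, and no difference was detectable for them at this depth.

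**Figure D3:**
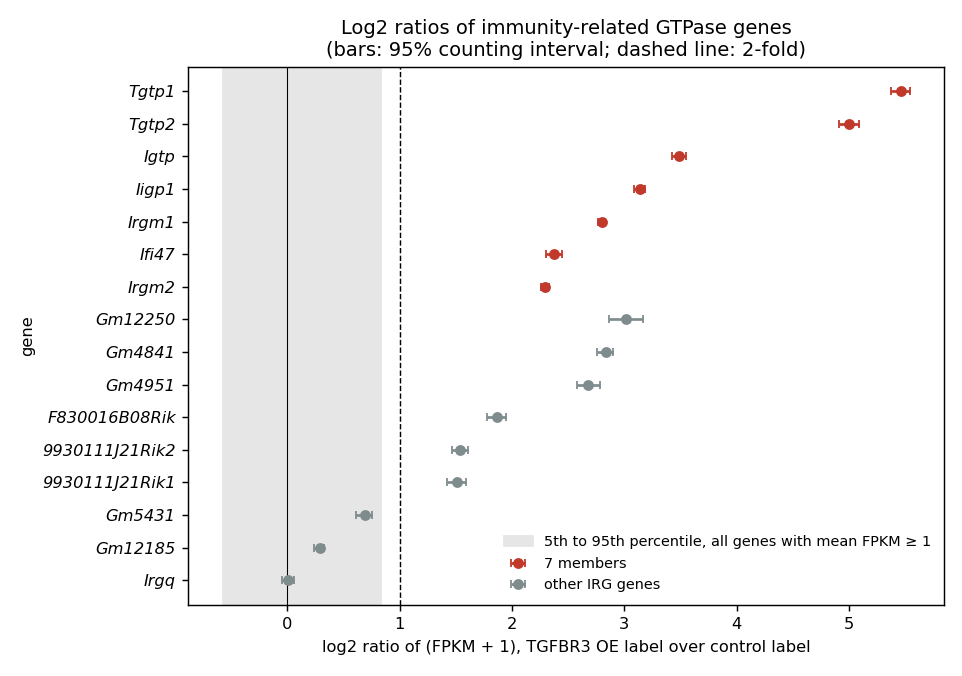
Log2 ratio of (FPKM + 1), library labelled TGFBR3 OE over library labelled control, for the 7 members (red) and 9 other genes of the family (grey), with 95% counting intervals, the 2-fold line (dashed) and the range between the 5th and 95th percentiles of all genes (−0.58 to 0.83, shaded). The members lie between 2.30 and 5.46, and Irgq lies at 0.01.

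Of the members, 6 sit in 2 clusters on chromosome 11 of GRCm38, and all 7 are annotated as protein-coding. Irgm1 (chr11:48861968-48871683), Tgtp1 (chr11:48985327-48994172), Tgtp2 (chr11:49057194-49064206) and Ifi47 (chr11:49076587-49096974) form the first cluster. Irgm2 (chr11:58199618-58222782) and Igtp (chr11:58199556-58207591) form the second, and Iigp1 (chr18:60376027-60392634) lies elsewhere. Protein-coding genes outside the family that start within 250 kb of a member numbered 27, and 17 of them averaged 1 FPKM or more. One of these 17 had a log2 ratio of 1 or more, against 3.14% of all genes, and none had a ratio of −1 or less, against 1.03%. Their median ratio was 0.26.

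That one gene was Psme2b, which lies between Irgm1 and Tgtp1 and had 48.35 and 23.41 FPKM and a log2 ratio of 1.02 (95% interval 0.93 to 1.10). Centred on the median gene, its ratio was 0.89, under 2-fold. Psme2b overlaps exons of 9930111J21Rik1 on the same strand, over 0.838% of the exon bases of 9930111J21Rik1. How much of the sequence of Psme2b occurs in other genes was not examined, so the origin of its reads is uncertain. Of the genes at this level beside the first cluster, Trim7 and Gm12184, nearest on the side of Irgm1, had log2 ratios of 0.44 and 0.26, and Zfp62, nearest on the side of Ifi47, had 0.34. Around Igtp and Irgm2, the nearest genes on either side that averaged 1 FPKM or more, Mrpl22 and Zfp692, both had 0.39. Smim3, the nearest gene after Iigp1, had −0.50. Olfr56 overlaps exons of Ifi47 on the same strand, over 4.49% of the exon bases of Ifi47, and had 381 and 59 counts with a mean FPKM under 1 and a log2 ratio of 0.94. Reads in the shared bases cannot be assigned to Ifi47 or Olfr56.

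**Figure D4:**
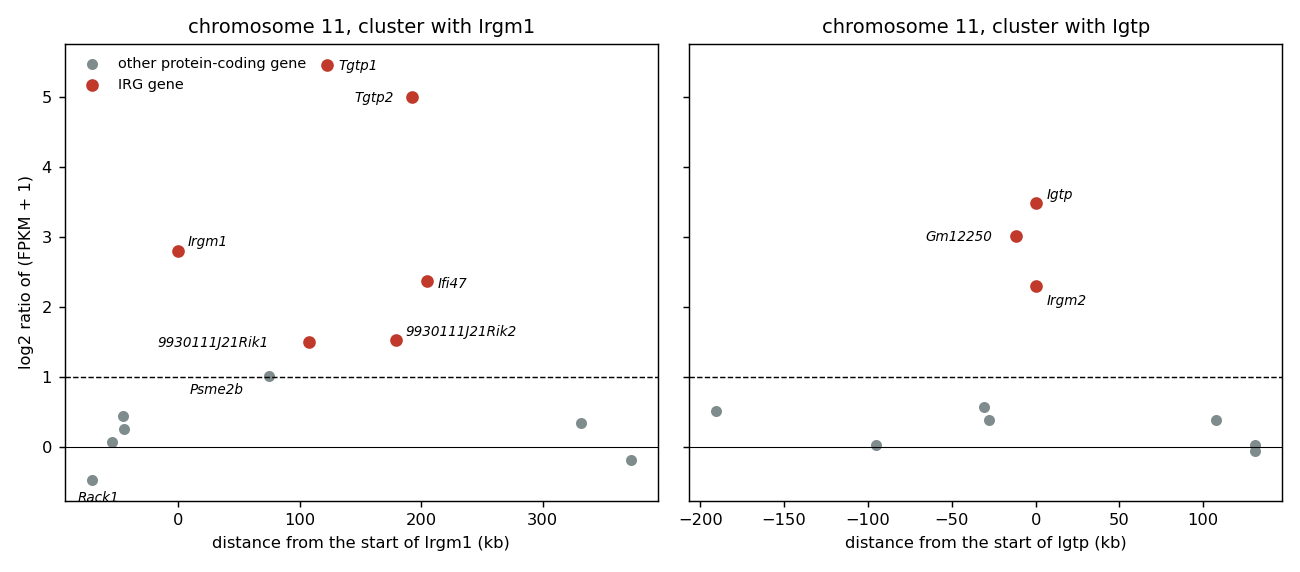
Log2 ratio of (FPKM + 1) against the distance of each gene's start from the start of Irgm1 (left) or Igtp (right) in kb, for genes of the family (red) and other protein-coding genes (grey) with a mean FPKM of at least 1. In both clusters the genes of the family lie above the dashed 2-fold line, and of the grey genes Psme2b, at 1.02, lies on it.

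The guanylate-binding proteins are the other large family of interferon-inducible GTPases and act on the same vacuoles as the IRG proteins. Of 11 listed, 10 were in the files (Gbp2b was not analysed here), and 7 averaged 1 FPKM or more. All of these 7 had log2 ratios of 1 or more, against 3.14% of all genes, with a median of 2.65 and a range from 1.78 to 3.14. Gbp5, Gbp7 and Gbp10 were under 1 FPKM in the library labelled control and passed the filter only through the other library. Such entry favors high ratios, so the count is a description only. Gbp3 had 73.56 and 7.43 FPKM and a ratio of 3.14, and Gbp2, the most abundant, had 235 and 36.73 FPKM and a ratio of 2.65. Gbp6 and Gbp9 had ratios of 2.92 and 2.74. Of the 11 listed, 5 had a promoter in RefSeq (Gbp2, Gbp2b, Gbp3, Gbp5 and Gbp7), and all 5 held an ISRE match, 2 held a GAS match and none held the joint order of the 4 IRG members. The shares of all genes with a promoter were 3.99% for ISRE, 9.55% for GAS and 0.0185% for the joint order.

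Of the upstream pathway, the interferons themselves had few counts. Of 18 listed, 3 were in the files, with 9 and 3 counts for Ifnb1, 0 and 0 for Ifna4 and 56 and 43 for Ifnz, and Ifng was not analysed here. Receptors and signaling genes numbered 24, of which 20 averaged 1 FPKM or more. Among these 20, 3 had log2 ratios of 1 or more, against 3.14% of all genes, and none had a ratio of −1 or less, against 1.03%. Their median ratio was 0.23. Nlrc5, an activator of MHC class I genes, had 6.24 and 1.10 FPKM and a ratio of 1.79. Stat2, which carries the signal of type I interferon to the nucleus, had 48.45 and 17.59 FPKM and a ratio of 1.41.

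Irf9, the DNA-binding partner of STAT2, had a log2 ratio of 0.97, the kinases Jak2 and Jak1 had 0.78 and 0.42, and Irf1, an interferon-induced factor, had 0.71. The receptor chains for interferon-γ were near the median gene, with log2 ratios of 0.08 for Ifngr1 and −0.19 for Ifngr2. Those for type I interferon had 0.03 for Ifnar1 and 0.22 for Ifnar2. The feedback inhibitor Socs1 had a log2 ratio of 0.24, and Irf8, a factor of myeloid cells, had 43 and 103 counts.

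The loading of IRG proteins onto a vacuole needs the conjugation machinery of autophagy, and 17 genes of this machinery and its partners were listed. All 17 averaged 1 FPKM or more, and 1 had a log2 ratio of 1 or more and none of −1 or less, against 3.14% and 1.03% of all genes. With 17 genes, 1 call is near that background, and the median ratio was 0.08. That one was Trim21, a ubiquitin ligase that is itself interferon-inducible, with 14.42 and 3.90 FPKM and a log2 ratio of 1.65. Atg5, Atg7 and Atg16l1, parts of the conjugation machinery, had log2 ratios of 0.60, −0.31 and 0.03, and Gabarapl2, one of its substrates, had −0.22. Map1lc3a, Sqstm1 and Atg12 had −0.77, 0.66 and 0.62. Of 11 dynamin-related GTPases with a mean FPKM of at least 1 (12 listed), Mx1 and Mx2, the antiviral members, had log2 ratios of 2.70 and 2.69, and the other 9 lay between −0.29 and 0.58. The share of all genes with a ratio of 1 or more was 3.14%. Mx1 was under 1 FPKM in the library labelled control and passed the filter only through the other library. The largest ratios among these 9 were those of Dnm1l, which divides mitochondria, with 0.58, and Opa1, which fuses them, with 0.46.

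**Figure D5:**
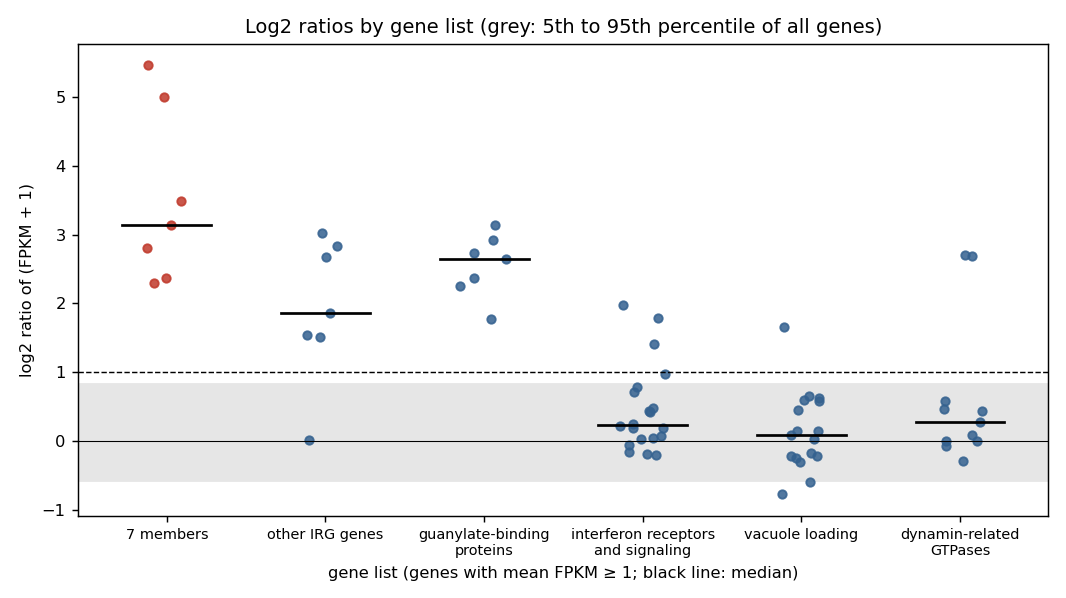
Log2 ratios of (FPKM + 1), library labelled TGFBR3 OE over library labelled control, for genes whose mean FPKM was 1 or more in 6 lists, with the median of each list as a black line, the 2-fold line dashed and the 5th to 95th percentiles of all genes shaded. The medians are 3.14 for the members, 1.87 for other genes of the family, 2.65 for guanylate-binding proteins, 0.23 for receptors and signaling, 0.08 for vacuole loading and 0.27 for dynamin-related GTPases.

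Outside the lists of the family, the 5 genes with a ratio nearest to the members' median of 3.14 were Gbp3 (3.14), Phf11a (3.02), Rsad2 (3.28), Ifit1 (2.98) and Gm27597 (2.96). With 2 libraries, likeness means only that the ratio is of the same size. Rsad2, which encodes viperin, and Ifit1 are antiviral genes induced by interferon. Gm27597 had 38 counts in the library labelled TGFBR3 OE and 1 in the other.

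Markers of immune, endothelial and muscle cells were at low levels. The 9 macrophage markers summed to 0.91 FPKM in the library labelled TGFBR3 OE and 0.54 in the library labelled control, and 3 of them (Adgre1, Tyrobp and Fcer1g) had no counts in either. Of 7 T cell markers, 2 were in the files, with 60 and 26 counts for Lck and none for Cd4. The 3 markers of NK cells in the files (of 5 listed) had no counts. The 5 endothelial markers summed to 2.17 and 2.03 FPKM, and the 3 muscle markers in the files (of 6 listed) to 1.15 and 0.81. The 7 IRG members summed to 594.98 and 61.63 FPKM, but sums over different genes do not measure shares of cells. Which cells the IRG transcripts came from was not tested. Of 8 FAP markers with a mean FPKM of at least 1, none differed by 2-fold, although Col1a1, with a log2 ratio of −0.89, passed 2-fold with −1.02 once ratios were centred on the median gene. Adipocyte markers were not at low levels, and the 7 listed summed to 45.71 and 78.78 FPKM. Of the 5 that averaged 1 FPKM or more, Adipoq and Cfd, both secreted by adipocytes, had log2 ratios of −1.07 and −1.29, against 1.03% of all genes with ratios of −1 or less. The other 3 were within 2-fold, with −0.47 for Plin1, −0.14 for Fabp4 and 0.16 for Lpl. The part of adipocyte content in the IRG values was not tested.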

How the data were processed

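RNA of FAPs was sequenced as paired reads of 150 nt from poly(A) RNA with a dUTP-marked second strand, per the labels, 1 library per group. The authors deposited, for each gene and library, the raw count and the FPKM rounded to 2 decimals. Their methods name STAR and FeatureCounts on mm10, whereas the submitters' processing notes name cutadapt 1.9, HISAT2 2.2.1, StringTie 2.1.6, DESeq2 and edgeR, and the annotation release is not given in the sources used here. FPKM depends on a library total, so another total shifts a library's genes by a common factor.

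The 2 libraries were joined by gene identifier, and log2 ratios were computed with a pseudocount of 1 over genes whose mean FPKM was 1 or more, with a threshold of 2-fold. Counts gave the exact 95% intervals (PCR reads are not independent molecules) and the floor of 3 counts. Count models need replicates, and none was run. The members, lists and tests were chosen with earlier results of these data known. Genes named were the members, Tgfbr3, every other IRG gene above 3 counts, up to 4 genes of each further list by the size of their ratio, genes named for their roles (1 listed signaling gene, counted in its list, is not reported here), the nearest genomic neighbors, and the 5 genes nearest to the members' median. Psme2b, Olfr56, Gbp2b, Irgc, Gm12187, the other interferons and the cell type markers were named beside that rule, with their values known. Coordinates, exons and words of 31 bases came from GENCODE M21 (GRCm38) and promoters from RefSeq (GRCm38.p6). Calculations used Python 3.11.15, SciPy 1.17.1 and edgeR 4.0.16 (TMM). The interval of a gene's share of counts was tested on simulated Poisson counts. Its conversion to the scale of FPKM + 1 and the Poisson intervals of single levels were not tested. Alternatives were other pseudocounts, scalings, thresholds and filters, trends over GC content and length, and Tgtp1 and Tgtp2 as 1 unit.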

Additional observations from a re-analysis of the deposited data

How the results depend on the processing

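Each of the 7 members was recomputed under 11 alternatives, and all 77 values were 2 or more on the log2 scale, from 2.01 to 6.59, so the direction and the count of 7 members above 2-fold were kept under these alternatives. With Tgtp1 and Tgtp2 as 1 unit, all 6 units were above 2-fold. The members' median of 3.14 became 3.37 and 3.40 with pseudocounts of 0.1 and 0.01, 3.40 as the plain ratio, 3.34 as CPM (scaled counts), 3.01 when centred, 3.20 with a common FPKM sum, 2.71 and 2.93 without the trends over GC content and exon length, and 2.97 with the pair as 1 unit. The pair's sum of 5.66 became 6.19, 6.25 and 6.26 with pseudocounts of 0.1 and 0.01 and as the plain ratio, 6.05 as CPM (scaled counts), 5.53 when centred, 5.86 with TMM factors, 5.83 with median-of-ratios factors and 5.30 without the GC trend. The effector to regulatory ratio of 0.631 and 0.271 became 0.236 and 0.232 without the pair, and 0.675 and 0.335 without Tgtp1 and Igtp. These were the highest of each class by mean FPKM and in the library labelled TGFBR3 OE. In the library labelled control they were the lowest of their classes. Of all genes, 352 were at least 2-fold higher, and this count became 645, 728 and 732 with pseudocounts of 0.1 and 0.01 and as the plain ratio, 1488 at 1.5-fold and 77 at 4-fold. The 116 lower genes became 192, 203 and 203 in the same order, 183 when centred, 302 with TMM factors, 335 with median-of-ratios factors, 550 at 1.5-fold and 6 at 4-fold. Lower pseudocounts raise ratios of low genes by construction. Another threshold changes the number of genes past it, and centring moves every ratio by the same amount, also by construction. For the other shifts the cause was not tested. No paired analysis was possible because each group is 1 library and none can be left out. The depth limits statements on genes near the floor, such as the interferons, and the lack of replicates limits all others.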
